A study of Mus musculus with 16 samples.

Results

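The ankyrin repeat and SOCS box (Asb) genes of muscle were followed in hearts of mice with mutations of the muscle ring finger proteins MuRF1 and MuRF2. The set holds 10 genes, Asb2, Asb4, Asb5, Asb8, Asb10, Asb11, Asb12, Asb14, Asb15 and Asb18, and its probes were found by the gene name in the array annotation. They made up 16 of the 41174 probes on the array. Of these, 12 were well above background in the heart channel on at least 4 of the 16 arrays, and 9 of the 10 genes were among the 12345 genes tested. The set was chosen by the Asb15 log2 ratio, which had 1 of the largest falls in hearts without both proteins. The difference between double null and wild type hearts was thus used for the choice, and the members' values in it are given below as a description, with no p.

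Hearts were taken whole from mice aged 12 weeks, and their RNA was hybridised to 16 two-colour Agilent arrays, 1 heart per array and 4 arrays per genotype. The wild type group carried both genes intact (MuRF1 +/+ MuRF2 +/+) and the double null group lacked both (MuRF1 -/- MuRF2 -/-). The MuRF1 null MuRF2 het group kept 1 allele of MuRF2 (MuRF1 -/- MuRF2 +/-), and the MuRF1 het MuRF2 null group kept 1 allele of MuRF1 (MuRF1 +/- MuRF2 -/-). The labels call the groups strain-matched and the replicates biological, and they name no strain for the hearts, no tissue-specific driver and no treatment. Heart RNA was read in the Cy5 channel against a shared Cy3 reference made by pooling RNA of entire C57BL/6 pups on postnatal day 1. Each value below is a log2 ratio of heart to pup reference, where 1 means 2 times the reference signal. A ratio sets a gene against its own probe in the reference, so ratios of different genes cannot be ranked as expression levels. In whole hearts, fewer cells of a type and less RNA per cell cannot be told apart.

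Asb proteins are the substrate receptors of a family of ubiquitin ligases. Their ankyrin repeats bind a target protein, and the SOCS box at the other end binds elongin B and elongin C (Elob, Eloc) and, through them, the scaffold cullin 5 (Cul5) and the ring protein Rbx2 (Rnf7). Several members, Asb2, Asb5, Asb11, Asb14 and Asb15 among them, are known as genes of striated muscle, where MuRF1 and MuRF2 are ubiquitin ligases of another kind, with their own ring finger.

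The probes are shown first because the Asb15 result depends on which probe was read. Asb15 has 3 probes. The first, of 60 bases, belongs to the RefSeq transcript NM_080847 and spans 692 bases of genome at chr6:24509728-24510419 by the coordinates in the files, whose build is not named, so it crosses an exon junction. The other 2 belong to the cDNA clone AK079418 and lie at chr6:24516108-24516167 and chr6:24516302-24516361, which is 5689 and 5883 bases beyond the end of the RefSeq probe in the direction of higher coordinates. RefSeq places Asb15 on the plus strand, so this direction is downstream. The clone was not placed against the Asb15 exons, and whether its probes and the RefSeq probe read the same transcript was not tested. The clone probes hold 80.0% and 76.7% A and T against 65.0% in the RefSeq probe. In the sequences below, capitals mark the longest run of whole codons without a stop codon in 1 reading frame of the sense strand. The Asb2 probe lies at chr12:100817205-100817264 and the Asb18 probe at chr1:89859204-89859263 in the same coordinates.
Asb15 RefSeq probe: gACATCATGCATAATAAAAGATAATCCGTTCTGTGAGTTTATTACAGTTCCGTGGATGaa
Asb2 probe: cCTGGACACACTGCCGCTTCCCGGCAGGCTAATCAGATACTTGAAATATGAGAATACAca
Asb18 probe: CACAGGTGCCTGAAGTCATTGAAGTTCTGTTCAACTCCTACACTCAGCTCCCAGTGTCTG

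The promoters of the genes were examined for motifs of muscle gene control because several members are known as genes of striated muscle. RefSeq sequences of assembly GRCm38.p6 covered 15 start sites of the 10 genes, each with 250 bases before and 50 after the start. Both strands were searched for the M-CAT element (CATTCC), the E-box (CAGCTG), the TATA box (TATAAA), the MEF2 site and the CArG box, and matches of different motifs may overlap. A MEF2 site stood in 4 of the 15 windows, those of Asb5, Asb12, Asb14 and Asb18, against 3.19% of all 32851 promoter windows. A CArG box stood in 2 windows, of Asb2 and Asb5, against 1.63% of all. The TATA box was found in 4 windows, the E-box in 3 and M-CAT in 2, against 13.6%, 16.3% and 14.7% of all windows. The 250 bases before the start are shown for Asb15, at chr6:24527894-24528143 on the plus strand, for Asb2, at chr12:103356002-103356251 on the minus strand, and for Asb14, at chr14:26894364-26894613 on the plus strand. Capitals mark the motifs. In Asb2 they are the CArG box, 64 to 55 bases before the start. In Asb14 they are a TATA box on the opposite strand, 42 to 37 bases before the start, and the MEF2 site from 30 to 21, which holds a further TATA box match. In Asb15 the marked TATA box lies 167 to 162 bases before the start, and none of the 4 other motifs was found in its window. A match describes letters only, and no binding was measured.
Asb15 promoter: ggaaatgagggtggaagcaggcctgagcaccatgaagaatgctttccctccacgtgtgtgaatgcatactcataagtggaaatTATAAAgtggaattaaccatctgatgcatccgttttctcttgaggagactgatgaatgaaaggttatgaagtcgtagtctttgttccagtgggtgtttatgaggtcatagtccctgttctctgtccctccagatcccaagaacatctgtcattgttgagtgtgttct
Asb2 promoter: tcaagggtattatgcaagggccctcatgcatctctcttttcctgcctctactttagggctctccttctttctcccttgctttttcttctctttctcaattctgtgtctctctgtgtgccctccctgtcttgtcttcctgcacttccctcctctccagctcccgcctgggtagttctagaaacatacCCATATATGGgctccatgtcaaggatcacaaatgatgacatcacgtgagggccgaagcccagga
Asb14 promoter: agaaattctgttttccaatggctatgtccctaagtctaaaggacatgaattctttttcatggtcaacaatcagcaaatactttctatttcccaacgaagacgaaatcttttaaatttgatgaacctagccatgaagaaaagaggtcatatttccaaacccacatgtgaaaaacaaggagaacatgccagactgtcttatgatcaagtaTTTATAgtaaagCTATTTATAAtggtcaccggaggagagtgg

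The arrays differed in brightness, and this touches every value of these genes. In the heart channel 15189 to 16690 probes were well above background on wild type arrays and 16143 to 17410 on MuRF1 het MuRF2 null arrays, but 6065 to 14520 on double null and 6425 to 15084 on MuRF1 null MuRF2 het arrays. Double null array 2 (6065 probes) and MuRF1 null MuRF2 het array 1 (6425 probes) stood apart, and results are given with and without them. Differences are also given on the authors' Feature Extraction log ratio, converted to log2, which adds no offset to low signals. Wild type and double null arrays shared slides 1 and 3, with 2 arrays of each group on each slide. The MuRF1 null MuRF2 het arrays filled slide 2 and the MuRF1 het MuRF2 null arrays slide 4, and in these groups the effect of the slide and that of the genotype cannot be told apart. Only the MuRF1 het MuRF2 null arrays were read with Feature Extraction version 9.5.3.1, and all others with 9.1.3.1. The effect of the version in that group cannot be told apart from genotype either. Its arrays had 106 to 126 flagged spots, against 2 to 61 on the others. Trim63, which encodes MuRF1, had a ratio of 2.64 ± 0.09 in wild type and 1.94 ± 0.21 in MuRF1 het MuRF2 null hearts, and of -0.72 ± 0.27 and -0.64 ± 0.22 in the double null and MuRF1 null MuRF2 het groups (SD, n = 4). Trim55, which encodes MuRF2, was at -1.73 in wild type and -1.35 in double null hearts and gave no check of genotype.

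Markers of the cell types in a heart were measured beside the Asb genes. All 8 cardiomyocyte markers were tested, and their mean ratio was 3.79 to 4.00 on wild type and 3.49 to 3.78 on double null arrays. By its best probe Ryr2 was above background on 11 of 16 arrays, and the other markers of this list on all 16. In double null against wild type hearts 2 of the 8 fell, Myh6 and Ryr2, and none rose, and without the dim arrays 3 fell. Over all genes 22.3% passed in this comparison, 12% as lower. Of 8 endothelial markers 7 fell, and their mean ratio was 0.81 to 0.90 on wild type and 0.05 to 0.31 on double null arrays. Of 11 markers of fast skeletal muscle 10 were tested, and Pvalb was not well above background on any array. Myh4 and Atp2a1 fell and Myh1 rose in this comparison, while 5 rose and 2 fell without the dim arrays, and the mean ratio of the list was -2.26 to -2.00 on wild type and -2.25 to -0.87 on double null arrays. Of 5 smooth muscle markers 2 rose and 1 fell, of 6 fibroblast markers 1 rose, and of 4 blood and immune markers tested 1 rose. On the Feature Extraction scale 5 endothelial, 1 cardiomyocyte and 2 blood and immune markers fell, and none of these lists had a rise. There 1 fast skeletal muscle marker rose and 2 fell, 1 smooth muscle marker rose and 1 fell, and no fibroblast marker passed. The part of these shifts in the Asb values was not tested.

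Asb15, a gene of skeletal and heart muscle, had its highest mean ratio in wild type hearts and its lowest mean in double null hearts. By the brighter clone probe, the ratios were 2.79, 2.95, 2.74 and 2.63 on the 4 wild type arrays and 1.15, 0.40, 1.98 and 1.40 on the 4 double null arrays. The highest double null value lay below the lowest wild type value, so the groups did not overlap, as was so for 12.9% of all genes in this direction. MuRF1 het MuRF2 null arrays gave 2.47, 2.74, 2.32 and 2.28. The values of 0.40, 3.02, 1.82 and 2.24 on MuRF1 null MuRF2 het arrays had the widest range of the 4 groups, and reached from the lowest double null value to above every wild type value. The heart channel was well above background on all 16 arrays for this probe and the pup reference on none, so the size of the ratio depends on how background was treated.

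**Figure D1:**
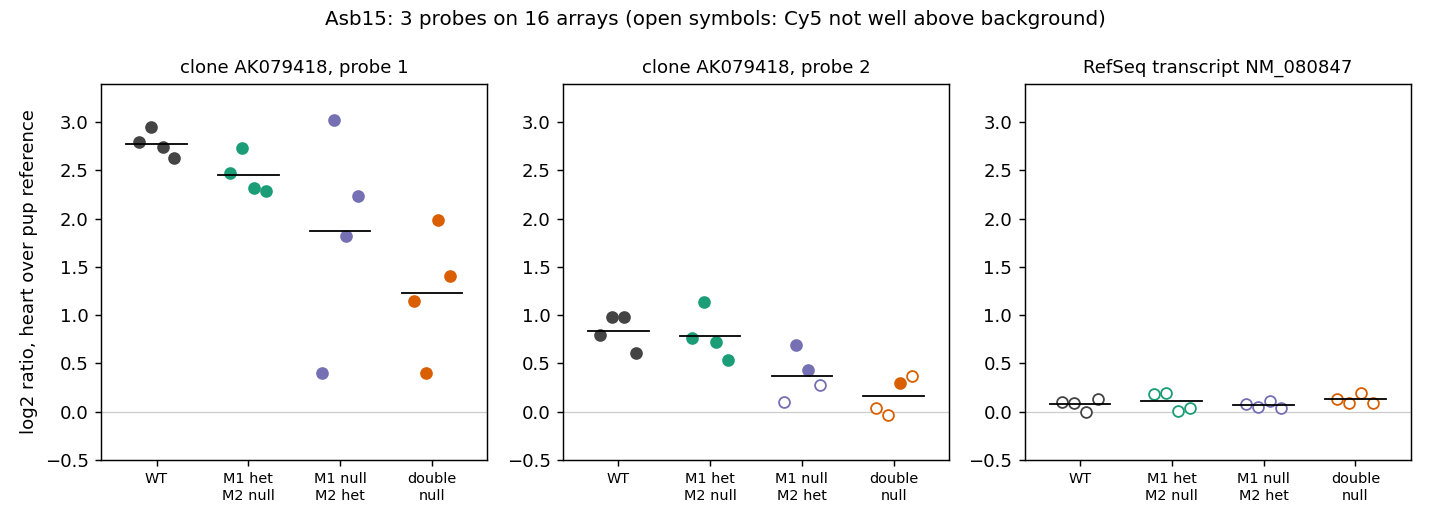
Log2 ratio of heart to pup reference for the 3 Asb15 probes, 1 point per array, with bars at the group means of 4 arrays (WT is wild type, M1 is MuRF1 and M2 is MuRF2). Both clone probes were lower on every double null array than on every wild type array, as were 12.9% of all genes. The RefSeq probe stayed near 0 on all 16 arrays.

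The group means of Asb15 were 2.78 ± 0.13 in wild type and 2.45 ± 0.21 in MuRF1 het MuRF2 null hearts, then 1.87 ± 1.10 in MuRF1 null MuRF2 het hearts and 1.23 ± 0.66 in double null hearts (SD, n = 4). In that order, the arrays of each group overlapped those of the next. The double null mean lay 1.54 ± 0.40 (SE) below wild type, a 2.92-fold lower ratio. Without the 2 dim arrays the difference was -1.27 ± 0.23, and on the Feature Extraction scale it was -1.87 ± 0.71, where the groups overlapped. Within slide 1 the difference of double null from wild type was -2.10, and within slide 3 it was -0.99. Among the double null arrays and among the MuRF1 null MuRF2 het arrays, the order of Asb15 followed closely the order of array brightness, and the dim array was lowest in both groups. The part of brightness in the difference was not tested, and with brightness as a covariate the double null difference was -0.40.

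The heart channel was also read alone, normalised by quantiles between arrays, since the reference gave no measured Asb15 signal. On this scale Asb15 was at 7.67, 7.81, 7.53 and 7.65 (log2 intensity) on wild type arrays and at 6.79, 6.90, 7.15 and 6.96 on double null arrays. The dim double null array, at 6.90, was no longer the lowest, and the groups again did not overlap. The share of all genes without overlap was not counted for the heart channel alone. The difference of double null from wild type was -0.72. The MuRF1 null MuRF2 het arrays were at 6.86, 7.83, 7.40 and 7.49 and MuRF1 het MuRF2 null arrays at 7.26, 7.50, 7.15 and 7.09, and every array of the latter group lay below every wild type array on this scale only.

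The other clone probe of Asb15 was dimmer, with 11 of 16 arrays above background, and 1 of 4 in the double null group. It gave 0.80, 0.98, 0.98 and 0.60 in wild type and 0.03, -0.03, 0.30 and 0.37 in double null hearts, again without overlap, and the difference was -0.67 ± 0.15 (SE). MuRF1 het MuRF2 null hearts had 0.76, 1.14, 0.72 and 0.54 and MuRF1 null MuRF2 het hearts 0.10, 0.69, 0.43 and 0.28. The RefSeq junction probe was not well above background on any array in either channel. All the Asb15 values thus come from the clone probes downstream, and the signal of the RefSeq probe gives only a bound in these hearts.

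Asb2, the receptor that directs filamins and, in muscle, desmin to degradation, was well above background in both channels on all 16 arrays. Its ratios were 3.01, 3.03, 2.69 and 2.93 in wild type hearts and 2.07, 1.80, 2.53 and 2.22 in double null hearts. Every double null array lay below every wild type array, as was so for 12.9% of all genes. The means were 2.15 ± 0.30 in double null and 2.92 ± 0.16 in wild type hearts (SD, n = 4), with a difference of -0.76 ± 0.21 (SE). The difference was -0.65 without the 2 dim arrays and -0.44 on the Feature Extraction scale, where the groups also did not overlap. The share of all genes without overlap on that scale was not counted. On that scale the dim double null array was the highest of its group for Asb2, at 3.15, and the lowest was array 1, at 2.73. MuRF1 het MuRF2 null hearts, at 2.78, 2.85, 3.09 and 2.77, lay within or just above the wild type range. The values of MuRF1 null MuRF2 het hearts, 1.86, 3.11, 2.41 and 2.87, overlapped both ranges.

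Asb2 was the 1 member that passed a test outside the contrast that chose the genes, though this test shares its double null arrays with that contrast. It was 1.65-fold lower in double null than in MuRF1 het MuRF2 null hearts (-0.72 ± 0.21, SE, adjusted p = 0.0212 by limma), and every double null array lay below every MuRF1 het MuRF2 null array. In that comparison 26.4% of all genes passed, 12.7% in the direction of lower, and 13% had every double null array lower. The groups in it also lie on different slides and were read with different software versions. The adjusted p was 0.00653 without both dim arrays. It was 0.151 on the Feature Extraction scale, where the difference was -0.30, 0.149 with each array centred on its median in place of loess, and 0.639 with array brightness as a covariate, where the difference was -0.11. Leaving out double null array 2 alone gave 0.0564, and leaving out MuRF1 het MuRF2 null array 3 gave 0.0605. The direction was lower under all 21 alternatives and the call held in 15 of them. These are not independent: the changes of filter and of block left the difference at -0.72, and the deposited series values repeated the Feature Extraction result. Others left out a single array. For Asb15 the same comparison is a description, since it shares the double null arrays that chose the gene: the difference was -1.22 ± 0.40 (SE) with no overlap, -0.94 without the dim arrays and 0.10 with brightness as a covariate.

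**Figure D2:**
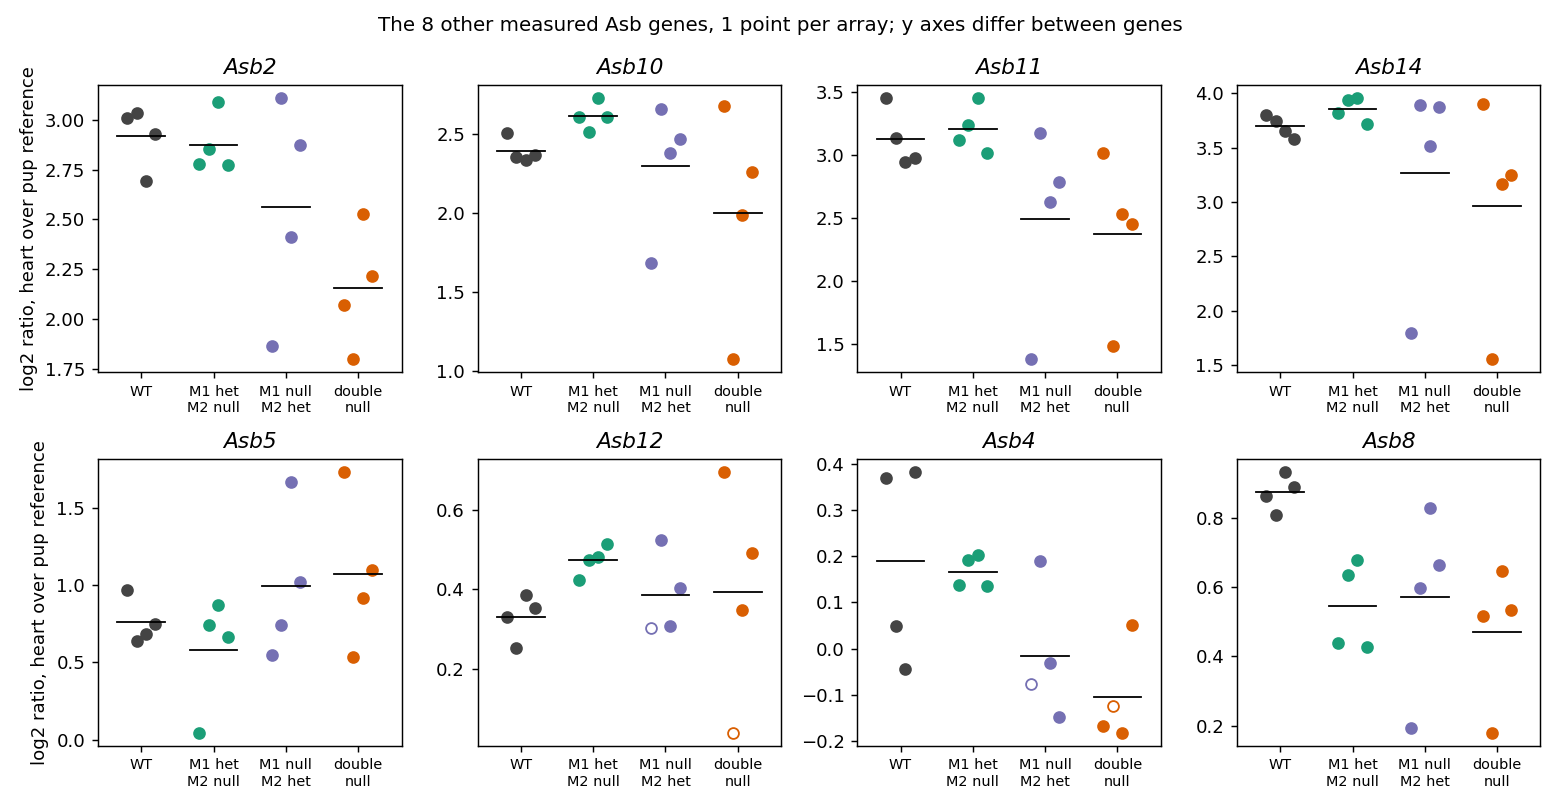
Log2 ratio of heart to pup reference for the 8 other measured Asb genes, 1 point per array and bars at the group means of 4 arrays, with open points where the heart channel was not well above background. Asb2 and Asb8 were lower on every double null array than on every wild type array, as were 12.9% of all genes. The lowest double null points of Asb10, Asb11 and Asb14 are the dim array.

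Asb8, another substrate receptor of the family, has 3 probes for the transcript NM_030121. Its brightest probe gave 0.86, 0.81, 0.93 and 0.89 in wild type hearts, the tightest group of the 4 for this gene. All arrays of the double null group, at 0.52, 0.18, 0.65 and 0.54, were lower (12.9% of all genes), with a difference of -0.40 ± 0.12 (SE). All arrays of the MuRF1 het MuRF2 null group, at 0.44, 0.63, 0.68 and 0.43, were lower too (11.5% of all genes). The difference from wild type was -0.33 ± 0.12 (adjusted p = 0.191 by limma). Without the 2 dim arrays, which belong to the other groups but enter the shared estimate of spread, that adjusted p was 0.0198, and on the Feature Extraction scale it was 0.903. For Asb8, MuRF1 null MuRF2 het hearts had 0.19, 0.60, 0.83 and 0.66. The other 2 Asb8 probes did not separate the groups. Their differences (± SE) between double null and wild type were -0.25 ± 0.17 and -0.24 ± 0.22, and between MuRF1 het MuRF2 null and wild type they were 0.01 for both, so the probes of this gene disagree on the latter comparison.

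Asb11, an ubiquitin ligase receptor of the endoplasmic reticulum, had ratios of 3.45, 3.13, 2.94 and 2.97 in wild type hearts and 3.01, 1.48, 2.53 and 2.45 in double null hearts. The groups overlapped through double null array 1. The difference was -0.76 ± 0.33 (SE) with all arrays, -0.46 ± 0.16 without the dim arrays and -0.11 ± 0.20 on the Feature Extraction scale. In MuRF1 null MuRF2 het hearts the values were 1.38, 3.18, 2.62 and 2.78, with the dim array lowest again, and MuRF1 het MuRF2 null hearts 3.12, 3.24, 3.45 and 3.01. A second probe of Asb11, from clone AK078851, was not well above background on any array.

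Asb14, a further receptor of this family in muscle, differed between the groups mainly through the dim arrays. Wild type hearts gave 3.80, 3.74, 3.66 and 3.58 and double null hearts 3.90, 1.56, 3.17 and 3.25. The dim array, at 1.56, stood far below the next double null value, at 3.17. The difference from wild type was -0.73 ± 0.44 (SE) with it and -0.26 ± 0.15 without the dim arrays. MuRF1 null MuRF2 het hearts repeated the pattern at 1.79, 3.89, 3.51 and 3.87, and MuRF1 het MuRF2 null hearts had 3.82, 3.94, 3.96 and 3.72. The pup reference was above background on 3 of 16 arrays for this probe.

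Asb10, known from studies of the eye, changed sides with the scale. Its ratios were 2.51, 2.35, 2.34 and 2.37 in wild type and 2.68, 1.07, 1.99 and 2.26 in double null hearts. Hearts with 1 MuRF2 allele had 1.68, 2.66, 2.38 and 2.47, and those with 1 MuRF1 allele had 2.61, 2.52, 2.73 and 2.61. The dim arrays were the lowest of their groups. The double null difference from wild type was -0.39 ± 0.25 (SE) with all arrays and -0.08 ± 0.13 without the dim arrays. On the Feature Extraction scale it was 0.69 ± 0.30 in the other direction, and there the dim arrays were the highest of their groups, at 4.55 and 5.41. No direction is therefore given for Asb10, and with brightness as a covariate the differences of Asb10, Asb11 and Asb14 from wild type also turned positive.

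**Figure D3:**
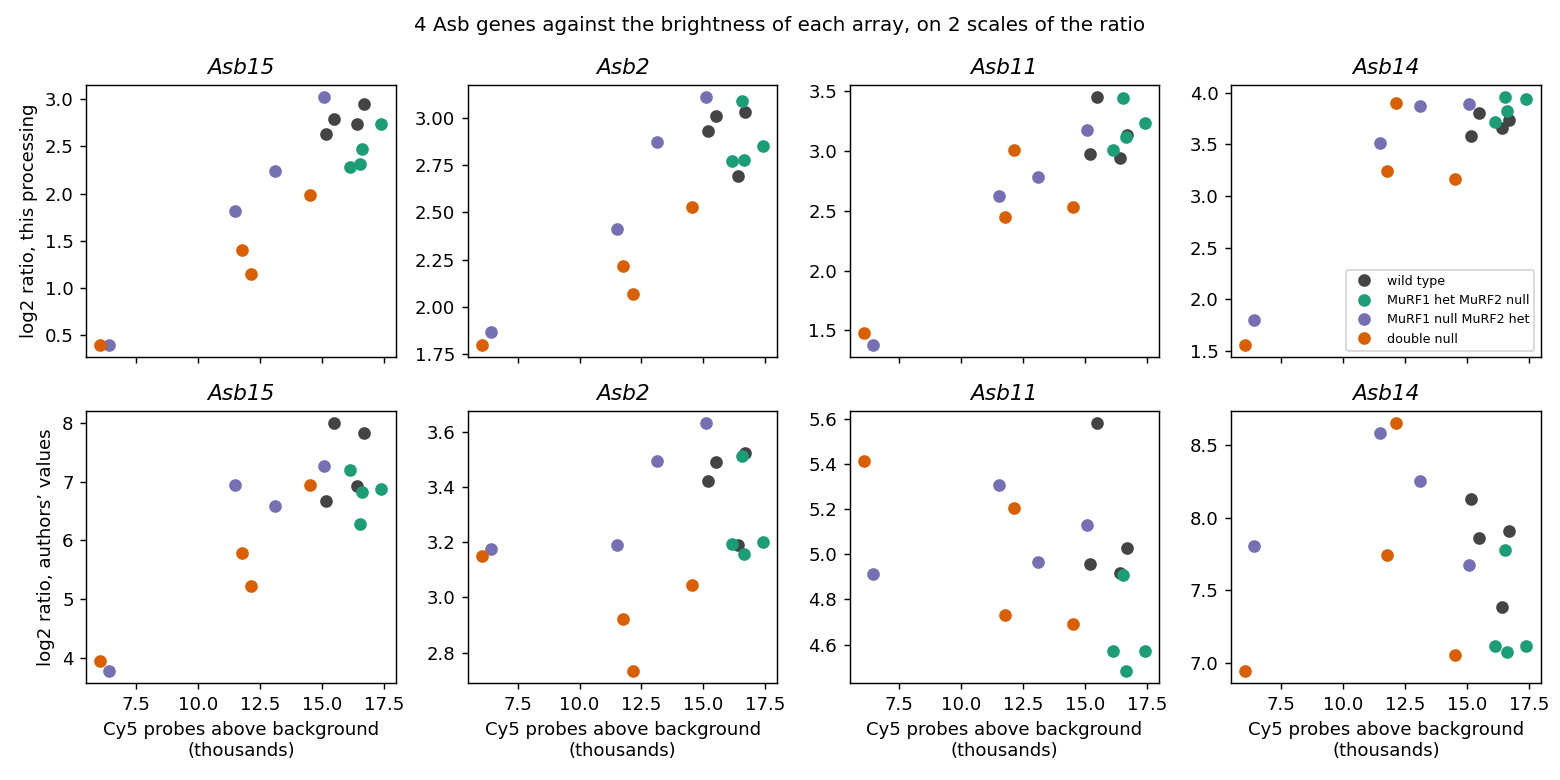
Log2 ratio of 4 Asb genes on each array against the number of heart channel probes well above background on that array, by the processing used here (upper row) and on the authors' Feature Extraction scale (lower row), coloured by genotype. Asb15 was lowest on the 2 dim arrays on both scales, and Asb11 and Asb14 were low there on the upper scale, while on the lower scale Asb11 on the dim double null array, at 5.42, was the highest of its group.

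Asb5, a gene of muscle satellite cells and growing arteries, had a higher mean in double null than in wild type hearts, except with arrays centred on their medians, where the difference was -0.35. It gave 0.97, 0.64, 0.68 and 0.75 in wild type and 1.73, 0.54, 0.92 and 1.10 in double null hearts. The spread of the double null group (SD 0.50) was larger than the difference of 0.31 ± 0.25 (SE). The difference grew to 0.49 ± 0.23 without the dim arrays and to 0.74 ± 0.31 on the Feature Extraction scale. There every double null array was above every wild type array, and the share of all genes with this pattern was not counted. MuRF1 null MuRF2 het hearts had 0.55, 0.74, 1.67 and 1.02 and MuRF1 het MuRF2 null hearts 0.04, 0.74, 0.88 and 0.66. Double null against MuRF1 het MuRF2 null hearts differed by 0.49 ± 0.25 (SE, adjusted p = 0.160 by limma). That adjusted p was 0.0342 without the dim arrays, with a difference of 0.67, and 0.0335 on the Feature Extraction scale, with a difference of 1.00, so the call for Asb5 depends on these choices.

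Asb12 had ratios above the reference in every group, and its difference between double null and wild type hearts was 0.06 ± 0.11 (SE), or -0.27 with arrays centred on their medians. Its means on the Feature Extraction scale were 0.83 in wild type and 1.29 in double null hearts, with a difference of 0.46 ± 0.14. Every double null array was higher there, and the share of all genes with this pattern was not counted. The Asb12 ratios ran from 0.25 to 0.38 in wild type and 0.04 to 0.70 in double null hearts. They ran from 0.30 to 0.52 in the MuRF1 null MuRF2 het group and from 0.42 to 0.51 in the MuRF1 het MuRF2 null group. All 4 MuRF1 het MuRF2 null values lay above the wild type ones (9.24% of all genes), by 0.14 ± 0.11 (SE) in the mean (adjusted p = 0.576 by limma). The heart channel of Asb12 was above background on 14 of 16 arrays, and not on the 2 dim ones.

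Asb4, known from developing blood vessels, had ratios near 0, at 0.37, 0.05, -0.04 and 0.38 in wild type and -0.17, -0.12, -0.18 and 0.05 in double null hearts. Double null array 4, at 0.05, reached into the wild type range, and the difference was -0.29 ± 0.10 (SE), and -0.29 ± 0.11 without the dim arrays. On the Feature Extraction scale it was -1.22 ± 0.54, with the 2 dim arrays at -2.22 and -2.25, where the signal was not above background. For Asb4, MuRF1 null MuRF2 het hearts had -0.08, 0.19, -0.03 and -0.15 and MuRF1 het MuRF2 null hearts 0.14, 0.19, 0.20 and 0.14. The endothelial markers that fell in double null hearts moved in the same direction as Asb4, and their part in its value was not tested. A second Asb4 probe was not well above background on any array. The single probe of Asb18, shown above, was not well above background on any array in the heart channel, and Asb18 was not tested.

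Over the 9 measured genes, 7 were lower and 2 higher in double null than in wild type hearts, with a median difference of -0.40 against 0.01 over all 12345 genes. In this comparison 22.3% of all genes passed an adjusted p of 0.05, 12% as lower. The choice of the set used this contrast, so no call is read for its members. Without the dim arrays the median was -0.29. The median on the Feature Extraction scale was -0.22 against -0.18 over all genes. Asb2, Asb4, Asb8 and Asb15 had a negative difference under each of the 24 (Asb4: 23) alternatives tried, and Asb10, Asb11 and Asb14 did not. Some alternatives leave out a single array or use a single slide, and others can hardly move the difference, so they are not independent checks. For Asb15 this direction is the one that chose the set.

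**Figure D4:**
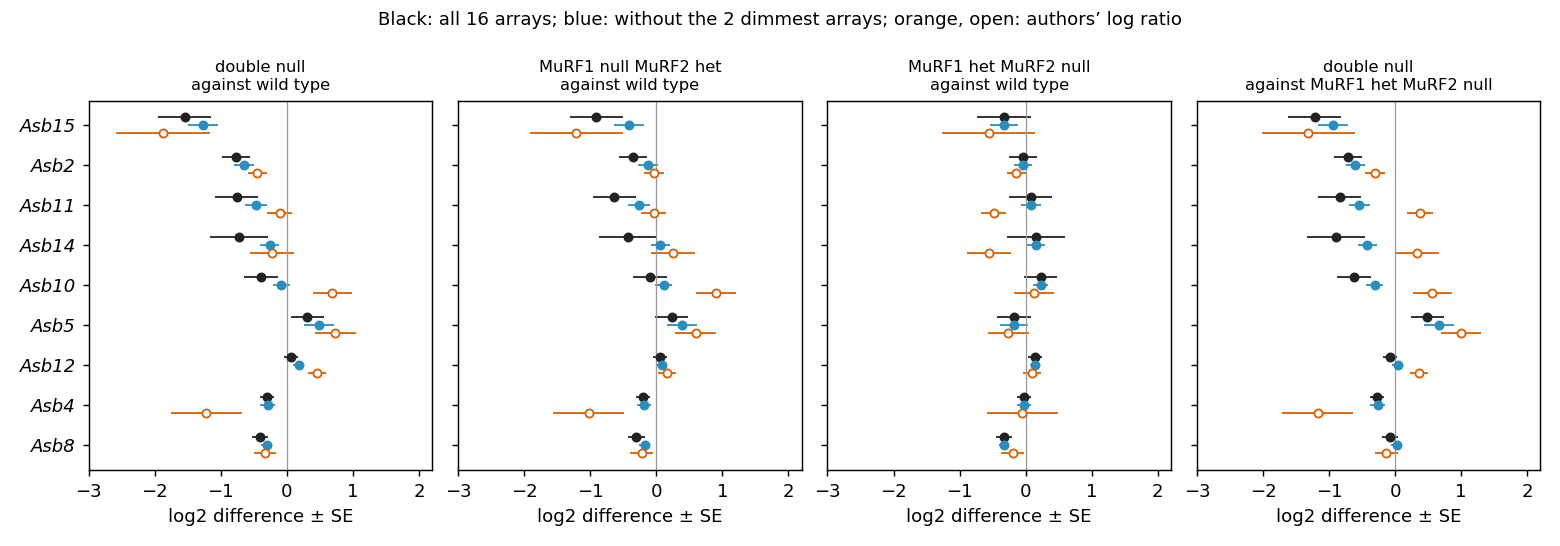
Log2 difference of group means with its SE (4 arrays per group) for the 9 measured Asb genes in 4 comparisons, with all 16 arrays (black), without the 2 dimmest arrays (blue) and on the authors' Feature Extraction scale (orange, open). Asb15, Asb2 and Asb4 lie below 0 in both comparisons of double null hearts on all 3. Asb10, Asb11 and Asb14 change size or side between them.

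MuRF1 null hearts with 1 MuRF2 allele left were set against wild type. None of the 8 members tested there passed, with adjusted p from 0.171 (Asb8, -0.30 ± 0.12) to 0.843 (Asb10) by limma, and 1.01% of all genes did. At an unadjusted p under 0.05 there was 1 member, Asb8. Asb2 was 0.35 lower in the mean (-0.35 ± 0.21, SE, adjusted p = 0.316) and -0.12 without the dim array. Asb15, described only, was lower by 0.91 ± 0.40 with the dim array and -0.42 ± 0.23 without it, and was 0.14 in the other direction with brightness as a covariate. This comparison shares its wild type arrays with the one that chose the genes.

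MuRF2 null hearts with 1 MuRF1 allele left were compared with wild type next, and slide and software version differ between these groups as well. None of 8 passed against wild type by limma, where 1.93% of all genes passed, and the median difference of the members was -0.02 against -0.01 over all genes. Asb15 differed by -0.33 ± 0.40 (SE) and Asb2 by -0.04 ± 0.21 (adjusted p = 0.957). Asb8, with every array lower (11.5% of all genes), was closest to the threshold and the 1 member with an unadjusted p under 0.05, as given above.

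Removing the last MuRF2 allele, double null against MuRF1 null MuRF2 het, gave no member past the threshold, in a comparison where 0.348% of all genes passed by limma, and 0 of 8 members had an unadjusted p under 0.05. Asb2 was lower by 0.41 ± 0.21 (SE, adjusted p = 0.574 by limma) and, without the dim arrays, the difference was -0.53 ± 0.16 with an adjusted p of 0.0808. Asb15 was at -0.64 ± 0.40, and at -0.85 ± 0.24 without the dim arrays. Removing the last MuRF1 allele, double null against MuRF1 het MuRF2 null, gave the Asb2 and Asb5 values above. There Asb11 was at -0.84 ± 0.33 (adjusted p = 0.0691), with no overlap, and Asb14 at -0.89 ± 0.44 (adjusted p = 0.142). Without the dim arrays their adjusted p was 0.0187 and 0.0381, and on the Feature Extraction scale both were higher, by 0.38 and 0.33, so no direction is given for them. Asb4 was at -0.27 ± 0.10 (adjusted p = 0.0626), with every double null array lower (13% of all genes). Slides differ between the groups in both comparisons, and software versions also differ between double null and MuRF1 het MuRF2 null arrays.

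The 2 groups with 1 allele left were compared directly, the only comparison without wild type or double null arrays and so the only one that tests Asb15. The Asb15 difference of MuRF1 null MuRF2 het from MuRF1 het MuRF2 null hearts did not pass (-0.58 ± 0.40, SE, adjusted p = 0.357 by limma). Without the dim array the difference was -0.09 ± 0.23 (adjusted p = 0.827). It turned to 0.64 with brightness as a covariate and to 0.14 in the heart channel alone, so no direction is given. None of the 9 members passed, while 8.52% of all genes did, and 1 member, Asb11, had an unadjusted p under 0.05. Asb11 was at -0.71 ± 0.33 (adjusted p = 0.165), and at 0.44 in the other direction on the Feature Extraction scale. These groups also lie on different slides and were read with different software versions, as given above.

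The ligase core that Asb proteins share was measured in the same hearts. Of 17 genes of the cullin 5 ligase and of neddylation, the attachment of the small protein Nedd8 that switches cullins on, 3 rose and 1 fell in double null against wild type hearts, with a median difference of 0.07, where 22.3% of all genes passed. On the Feature Extraction scale 1 rose and 1 fell, and without the dim arrays 3 rose and 2 fell. Cul5 itself, the scaffold, was the gene that fell (-0.25 ± 0.08, SE, adjusted p = 0.0344 by limma). Rbx1, the ring protein of other cullins, rose by 0.43 ± 0.12, Nedd8 by 0.24 ± 0.07 and Dcun1d3, a neddylation factor, by 0.29 ± 0.10 (adjusted p = 0.0193, 0.0255 and 0.0474). The ring partner of Cul5, Rnf7, was at 0.16 ± 0.10 (adjusted p = 0.253), and the elongins Elob and Eloc were at 0.40 ± 0.17 and 0.13 ± 0.13 (adjusted p = 0.0878 and 0.476).

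Cul5 differed most between double null and MuRF1 het MuRF2 null hearts, with means of 0.04 and 0.52 and a difference of -0.48 ± 0.08 (SE, adjusted p = 0.000909 by limma). The difference was -0.48 without the dim arrays and -0.57 on the Feature Extraction scale. In the same comparison Elob rose by 0.52, Rbx1 by 0.44 and Nedd8 by 0.31 (adjusted p = 0.0327, 0.0139 and 0.00616), and 13 of the 17 did not pass, where 26.4% of all genes did. There 1 rose and 2 fell on the Feature Extraction scale, and 6 rose and 1 fell without the dim arrays. Cul5 was also lower in MuRF1 null MuRF2 het than in MuRF1 het MuRF2 null hearts, by 0.30 ± 0.08 (adjusted p = 0.0334), which was 0.0606 without the dim array. Against wild type, Cul5 in MuRF1 het MuRF2 null hearts was higher by 0.22 ± 0.08 (adjusted p = 0.162 by limma). Slide and software version set the MuRF1 het MuRF2 null arrays apart from the other groups and cannot be told apart from genotype.

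Proteins that Asb2 or Asb4 are known to bind were followed as transcripts. Of 7 such genes, Id2, an inhibitor of helix-loop-helix factors that Asb4 targets, rose in double null against wild type hearts, by 0.75 ± 0.20 (SE, adjusted p = 0.0169 by limma), and none fell. Over all genes 22.3% passed in this comparison, and 26.4% in double null against MuRF1 het MuRF2 null hearts. Against wild type 1 of the 7 rose and 1 fell on the Feature Extraction scale, and 2 rose and 1 fell without the dim arrays. Against MuRF1 het MuRF2 null hearts Id2 rose by 0.76 ± 0.20 (adjusted p = 0.0132), and so did Des, the desmin gene, by 0.83 ± 0.18 (adjusted p = 0.00475), with means of 1.67 and 0.84. Des was at 0.42 ± 0.18 against wild type (adjusted p = 0.105, and 0.0187 without the dim arrays). In the comparison with MuRF1 het MuRF2 null hearts, slide and software version differ as well. These are transcript ratios, and protein was not measured.

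Of the 8 other Asb genes on the list, Asb9, Asb16 and Asb17 were not well above background on any array and 5 were tested. None of the 5 passed in double null against wild type hearts, where their median difference was -0.06. On the Feature Extraction scale 1 of the 5 fell there, and the median was -0.32 against -0.18 over all genes. Asb1 fell in MuRF1 null MuRF2 het hearts, by 0.46 ± 0.09 against wild type (SE, adjusted p = 0.0343 by limma) and by 0.40 ± 0.09 against MuRF1 het MuRF2 null hearts (adjusted p = 0.0232). The first adjusted p was 0.0332 without the dim array. On the Feature Extraction scale neither fall passed, with differences of -0.86 and -0.82. Over all genes 1.01% and 8.52% passed in these comparisons, where slide and genotype cannot be told apart. In double null hearts Asb1 was at -0.22 ± 0.09 against wild type (adjusted p = 0.0995).

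The genes whose pattern over the 16 arrays was most like that of Asb15 were found by the root mean square difference of log2 ratios, each centred on its own mean. Of 12286 genes compared, 1430 were passed over by their names, such as those of clones, accessions, predicted genes and pseudogenes. The 5 nearest of the others began with Slc12a7, a potassium chloride cotransporter, at 0.27. Pygb, a glycogen phosphorylase, and Ogdh, an enzyme of the citric acid cycle, were both at 0.28. Fhod3, a formin of the heart sarcomere, was at 0.28, and Slc4a3, an anion exchanger, at 0.30. The median over all genes was 0.83. All 5 had lower means in double null than in wild type hearts, which follows from the choice, as with Fhod3 at 1.34 and 2.79. On the Feature Extraction scale their differences ran from -1.15 to -0.88. Among the Asb genes, Asb11 came nearest, at rank 86, then Asb2 at rank 96 and Asb14 at rank 158, while Asb5 was at rank 9900. These ranks count all 12286 genes, with those passed over by name. Array brightness moves with this pattern as it does with Asb15, and its part in the likeness was not tested.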

How the data were processed

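Scanner files of 16 two-colour Agilent arrays were used, with intensity values deposited by the authors as Feature Extraction wrote them, per the file headers. The authors' log10 ratio per spot, already background-subtracted and dye-normalised per the file headers, and the deposited series values, which track it on the log2 scale, served as alternatives. The channel entries of the labels put heart RNA in Cy5, and the labelling protocol names Cy3 alone, so the channel entries were followed. Background was corrected with normexp (offset 50) and each array normalised by loess in limma 3.58.1 (R 4.3.3). Probes well above background in Cy5 on at least 4 of 16 arrays were kept, and where a gene had several such probes the one brightest in Cy5 on average stood for it. One limma model with 4 group means was fitted over 12345 genes, with Benjamini-Hochberg adjustment and a threshold of 0.05. On simulated data for double null against wild type, with 16755 probes, it recovered 52%, 94%, 96% and 100% of log2 differences of 0.5, 1, 1.5 and 2. The simulation gave all groups the same spread per probe and no dim arrays, unlike these data, so it checks the fit and does not give the recovery here. Named were all members, up to 6 genes per list that passed, the ligase core genes, and the 5 genes most like Asb15 among the names not passed over. The members and the lists were chosen with earlier results of these data known. The number of arrays limits the precision. The result of 1 listed gene is not reported here.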

Additional observations from a re-analysis of the deposited data

How the results depend on the processing

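Of 3363 values of single genes over 162 results and their alternatives, 2811 kept direction and side of the threshold, or moved less than 1 SD where untested, 421 moved further, 101 reversed, 24 gained and 6 lost the threshold. Same-numbered arrays were not paired (correlations of their deviations from -0.61 to 0.36, over 0.1 in 9 of 24 pairs), and with the replicate number as a block Asb2 in double null against MuRF1 het MuRF2 null had an adjusted p of 0.0317. Leaving out the 2 dim arrays was chosen after seeing the data. Under median centring the middle of the distribution over all genes lay at -0.49 in double null against wild type, and differences under it include that shift. The deposited series values differed little from the Feature Extraction log ratio. For changes given here, the cause was not tested. In double null against wild type, the count of genes past the threshold was 2751, and it was 6892 with median centring, 1418 with the strict filter on dim probes, 1831 with array brightness as a covariate, 6415 with array weights and 0 with slide 1 alone. Leaving out 1 array at a time gave 1553 to 3618 genes. In MuRF1 null MuRF2 het against wild type, the count of genes past the threshold was 125, and it was 7381 with median centring, 22 with the Feature Extraction log ratio, 22 with the deposited series values, 73 with the Cy5 channel alone, 28 with the strict filter on dim probes, 193 with every probe tested, 2148 with array weights and 66 with the replicate number as a block. Reversed there were Asb2 0.13, Asb10 0.45, Asb11 0.13 and Asb14 0.63 with array brightness as a covariate, Asb5 -0.43 and Asb12 -0.32 with median centring, Asb10 0.06 and Asb12 -0.02 with no background subtraction, Asb10 0.90 and Asb14 0.26 with the Feature Extraction log ratio, Asb10 0.90 and Asb14 0.26 with the deposited series values, Asb10 0.05 and Asb14 0.14 with the Cy5 channel alone, Asb10 0.04 with array weights and Asb10 0.11 and Asb14 0.06 with the 2 dim arrays left out. Leaving out 1 array at a time gave 23 to 1523 genes, Asb10 from -0.21 to 0.11 and Asb14 from -0.64 to 0.06. In MuRF1 het MuRF2 null against wild type, the count of genes past the threshold was 238, and it was 2571 with median centring, 23 with the Feature Extraction log ratio, 23 with the deposited series values, 637 with the Cy5 channel alone, 1497 with array brightness as a covariate, 2996 with array weights, 153 with the replicate number as a block and 1043 with the 2 dim arrays left out. Reversed there were Asb2 0.13, Asb5 0.00, Asb10 -0.04 and Asb12 0.00 with the Cy5 channel alone, Asb4 0.00, Asb11 -0.11 and Asb14 -0.08 with no background subtraction, Asb10 -0.20, Asb11 -0.32, Asb12 -0.13 and Asb14 -0.21 with median centring, Asb11 -0.49 and Asb14 -0.55 with the Feature Extraction log ratio, Asb11 -0.49 and Asb14 -0.55 with the deposited series values and Asb11 -0.05 and Asb14 -0.02 with array brightness as a covariate. Leaving out 1 array at a time gave 69 to 185 genes, Asb4 from -0.10 to 0.04, Asb5 from -0.28 to 0.00 and Asb11 from 0.00 to 0.19. In double null against MuRF1 null MuRF2 het, the count of genes past the threshold was 43, and it was 0 with median centring, 87 with the Feature Extraction log ratio, 87 with the deposited series values, 350 with the Cy5 channel alone, 14 with no filter, 310 with array brightness as a covariate, 1415 with array weights, 16 with the replicate number as a block and 480 with the 2 dim arrays left out. Reversed there were Asb4 0.07 and Asb5 -0.08 with array weights and Asb5 0.00 and Asb12 -0.16 with the Cy5 channel alone. Leaving out 1 array at a time gave 3 to 357 genes, Asb5 from -0.14 to 0.30, Asb10 from -0.53 to 0.01, Asb11 from -0.49 to 0.17, Asb12 from -0.09 to 0.13 and Asb14 from -0.79 to 0.17. In double null against MuRF1 het MuRF2 null, the count of genes past the threshold was 3261, and it was 885 with median centring, 1520 with the strict filter on dim probes and 6643 with array weights. Reversed there were Asb8 0.22, Asb10 0.06, Asb11 0.13, Asb12 0.12 and Asb14 0.45 with array brightness as a covariate, Asb8 0.02 and Asb12 0.04 with the 2 dim arrays left out, Asb10 0.56, Asb11 0.38, Asb12 0.36 and Asb14 0.33 with the Feature Extraction log ratio, Asb10 0.57, Asb11 0.37, Asb12 0.36 and Asb14 0.33 with the deposited series values, Asb12 0.03 with the Cy5 channel alone and Asb12 0.01 with array weights. Leaving out 1 array at a time gave Asb8 from -0.13 to 0.02 and Asb12 from -0.18 to 0.04. In MuRF1 null MuRF2 het against MuRF1 het MuRF2 null, the count of genes past the threshold was 1052, and it was 358 with median centring, 292 with the Feature Extraction log ratio, 291 with the deposited series values, 1797 with the Cy5 channel alone, 433 with the strict filter on dim probes and 3137 with array weights. Reversed there were Asb2 0.11, Asb8 -0.02, Asb10 0.78, Asb11 0.44, Asb12 0.07 and Asb14 0.81 with the Feature Extraction log ratio, Asb2 0.11, Asb8 -0.02, Asb10 0.78, Asb11 0.44, Asb12 0.07 and Asb14 0.81 with the deposited series values, Asb2 0.25, Asb10 0.31, Asb11 0.18, Asb12 0.09, Asb14 0.65 and Asb15 0.64 with array brightness as a covariate, Asb8 -0.45 with median centring and Asb10 0.09, Asb12 0.18, Asb14 0.14 and Asb15 0.14 with the Cy5 channel alone. Leaving out 1 array at a time gave 202 to 2116 genes and Asb8 from -0.06 to 0.15. At an unadjusted p under 0.05, limma counted 2634 genes on slide 1 alone and 185 for double null against MuRF1 null MuRF2 het with median centring. Asb18 and the RefSeq probe of Asb15 are limited by signal, not above background on any array.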
